A study of Mus musculus with 12 samples.

Results

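Neutrophils are drawn into inflamed skin by CXC chemokines that carry an ELR motif and bind the receptor CXCR2, and their production, release and survival are driven by colony-stimulating factors (CSFs). Described here are 10 genes of this axis out of the 56923 genes counted in mouse back skin, taken as a list: the ligands Cxcl1, Cxcl2, Cxcl3, Cxcl5 and Ppbp, the chemokine receptors Cxcr1 and Cxcr2, the factors Csf2 (GM-CSF) and Csf3 (G-CSF), and the G-CSF receptor gene Csf3r. Keratinocytes, fibroblasts, macrophages and other resident cells make the ligands and CSFs upon inflammatory stimulation, whereas Cxcr1, Cxcr2 and Csf3r are carried largely by neutrophils. CXCR2 ligands and neutrophils that gather in the epidermis are long-known features of psoriasis.

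Back skin of 12 mice, all female and 8 to 10 weeks old, was profiled by bulk RNA-seq, with 3 mice in each of 4 groups formed by genotype (WT or labelled Lcn2-/-) and treatment (control or imiquimod, IMQ). IMQ is a TLR7 agonist whose cream produces psoriasis-like lesions in mice. The study's methods describe 5% IMQ cream or vehicle cream each day for 6 days and Lcn2-/- mice on a C57BL/6 background beside WT littermates, whereas the labels state an LCN2 knockdown and give none as the controls' treatment. The comparison between genotypes is meant to address how the lack of LCN2, a siderophore-binding protein released by neutrophils and keratinocytes, alters the response to IMQ.

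The library totals lay between 16448226 and 28592110 counts. Values are given as CPM, reads scaled to the TMM-normalised size of each library, and 3 counts over the 3 libraries of a group correspond to between 0.0419 and 0.0598 CPM, for counting error only. Lcn2 itself was read in every library: the control libraries labelled Lcn2-/- held 9.22 to 15.9 CPM and the WT control libraries 4.57 to 8.64 CPM, which goes against the label, whereas the IMQ libraries labelled Lcn2-/- held 29.9 to 49.8 CPM and the WT IMQ libraries 61.2 to 183 CPM, which runs the way the label says (log2 -1.49 ± 0.4 SE, edgeR adjusted p = 0.0525, without overlap). The groups are therefore named by their labels throughout, and the deleted part of the gene was not looked at separately. Retina genes, since the extraction protocol names retinas, summed to between 0.605 and 3.09 CPM in every library and keratinocyte markers to 5434 CPM or more. The third IMQ mouse labelled Lcn2-/- stood apart, with a sum of 668 CPM over 17 neutrophil markers against 185 to 387 CPM in the other 5 IMQ mice. Several results that rest on this mouse are given without it too.

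Of the 10 genes, 9 had enough reads to be tested and Csf2 did not. Cxcr1, Cxcl3, Cxcl5 and Csf3 had few or no reads in most control libraries. Like Ppbp, which had 2 to 16 reads a control library, they passed the read filter through their IMQ libraries. A rise in any of these genes was therefore largely set by that filter. The counts that follow include them. In WT mice, 8 of the 9 rose after IMQ (edgeR quasi-likelihood test, Benjamini-Hochberg adjusted p under 0.05 over 18529 tested genes), where 28.5% of all tested genes were called and 14.2% rose, and in 9 of 9 every IMQ mouse lay above every control mouse, as in 20.1% of all tested genes. With the Lcn2-/- label, 6 of the 9 rose, where 25.3% of all tested genes were called and 14.1% rose, and 7 of 9 lay higher without overlap, as did 23.1% of all tested genes. Between the genotypes after IMQ, none of the 9 passed, where 4.78% of all tested genes did. In the levels by mouse, control and IMQ skin of the same genotype lay apart for 7 of the 10 genes in both genotypes and overlapped for Ppbp and Csf3 with the Lcn2-/- label and for Csf2 in both.

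**Figure D1:**
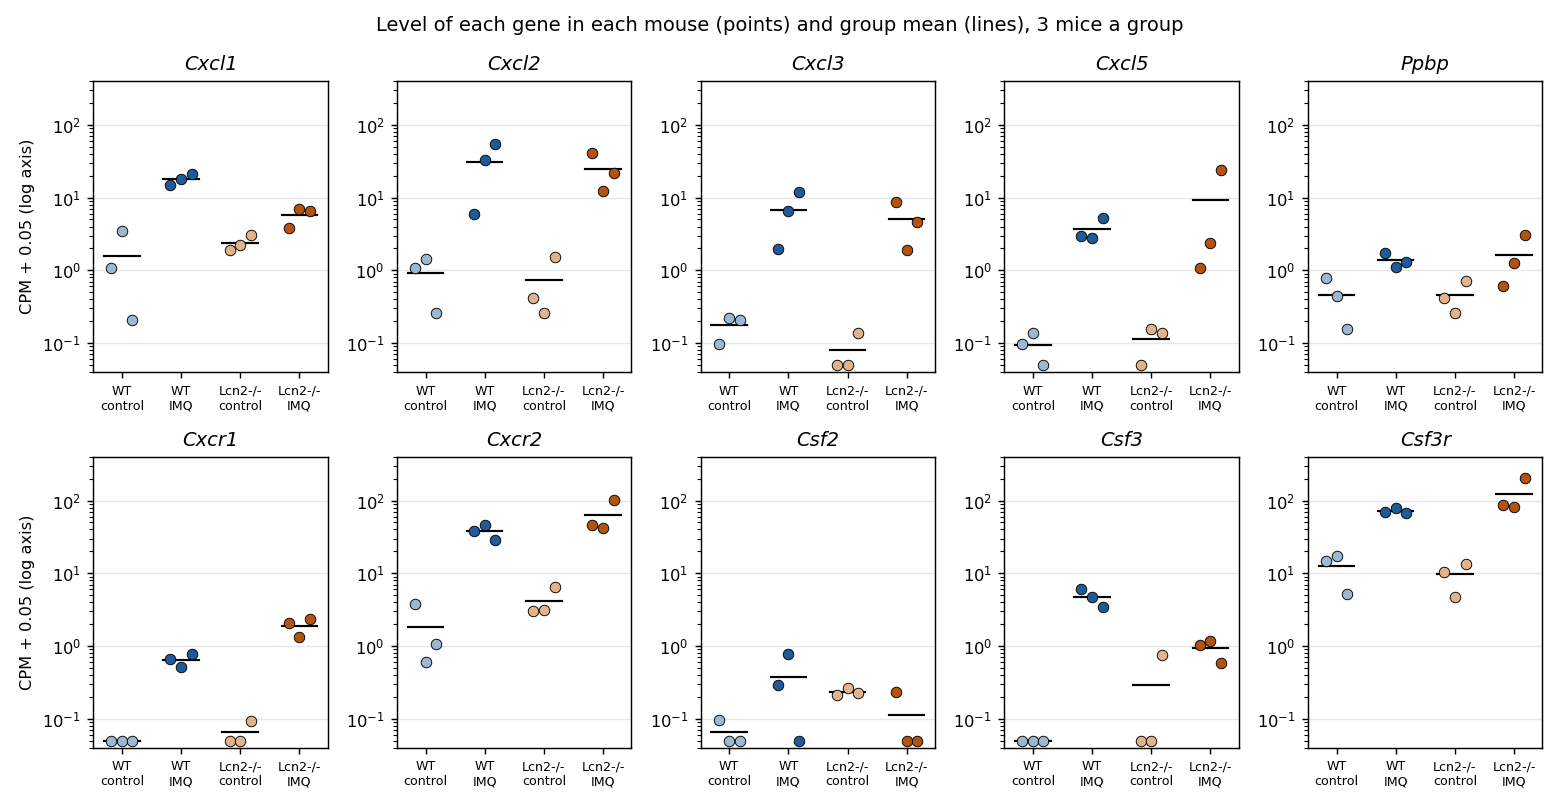
Level of each of the 10 genes in each mouse, as CPM plus 0.05 on a log axis, by group (points, 3 mice a group; lines, group means). Cxcl1 and Csf3 lay lower in the 3 IMQ mice labelled Lcn2-/- (3.79 to 6.84 and 0.54 to 1.11 CPM) than in the 3 WT IMQ mice (14.8 to 21 and 3.34 to 6.06 CPM), and Cxcr1 lay higher (1.29 to 2.28 against 0.471 to 0.727 CPM).

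The 5 ligand genes lie together on chromosome 5 of GRCm38, within 147 kb (90759360 to 90905938) and on the plus strand. Cxcl1, Cxcl2 and Cxcl3 encode close relatives (KC, MIP-2 and DCIP-1), Cxcl5 encodes LIX and Ppbp the precursor of the platelet chemokine CXCL7. The stretches of 80 bases from -120 to -41 relative to the RefSeq start are shown for the ligand genes in the promoter table of GRCm38.p6, because Cxcl1, Cxcl2 and Cxcl3 share a 10-base κB-type match there and Ppbp does not. Capitals mark GGGAATTTCC. The windows are chr5:90891125-90891204 for Cxcl1, chr5:90903779-90903858 for Cxcl2, chr5:90785981-90786060 for Cxcl3 and chr5:90768398-90768477 for Ppbp.
Cxcl1: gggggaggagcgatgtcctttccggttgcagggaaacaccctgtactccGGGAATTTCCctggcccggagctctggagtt
Cxcl2: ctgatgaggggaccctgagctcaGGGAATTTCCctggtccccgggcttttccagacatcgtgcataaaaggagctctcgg
Cxcl3: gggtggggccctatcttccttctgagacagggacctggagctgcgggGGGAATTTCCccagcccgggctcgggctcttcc
Ppbp: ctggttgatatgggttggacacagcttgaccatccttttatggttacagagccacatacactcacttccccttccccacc

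The match begins 67 bases upstream of the annotated GENCODE start of Cxcl1, 69 bases upstream of that of Cxcl2 and 75 bases upstream of that of Cxcl3. GGGAATTTCC was taken from the Cxcl1 promoter itself, as the first match there to a looser NF-kB consensus. Its presence in Cxcl1 was therefore given in advance. Searched on both strands in the 250 bases upstream of the start, GGGAATTTCC was found in 28 of 32851 RefSeq mouse promoters (0.0852%), and these 3 genes were the only ones of the 8 in the table (Cxcl5 and Csf3 were not) to hold it. The looser NF-kB consensus, which overlaps it, was found in 3.9% of the promoters and again in these 3 genes of the 8. The AP-1 type motif TGANTCA was found in 6.75% of the promoters and, among the 8 genes, in Ppbp alone, 204 bases upstream of its start. A match is a description of the sequence and says nothing of binding in these mice.

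Cxcl1 was strongly upregulated by IMQ in WT skin. It measured 1.02, 3.4 and 0.16 CPM in the WT control mice and 14.8, 17.9 and 21 CPM in the WT IMQ mice. The groups do not overlap, and the control mice differed more widely in proportion than the IMQ mice. The increase was 11.5-fold (log2 fold change 3.52 ± 0.65 SE, edgeR adjusted p = 0.00243). The mice labelled Lcn2-/- held Cxcl1 at 1.87, 2.18 and 2.99 CPM in control and 3.79, 6.84 and 6.48 CPM in IMQ skin. These groups do not overlap either, but the difference of 1.28 ± 0.62 (SE, log2) did not pass (edgeR adjusted p = 0.148). It passed when only these 6 mice were fitted (adjusted p = 0.0215 with edgeR and 0.00229 with DESeq2, which called 27.9% and 26.2% of all genes).

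Cxcl2 rose in both genotypes. It measured 1.02, 1.38 and 0.213 CPM in WT control skin and 5.94, 33.1 and 53.7 CPM in WT IMQ skin. It measured 0.361, 0.213 and 1.47 CPM in control skin labelled Lcn2-/- and 40.7, 12.2 and 21.7 CPM in IMQ skin of that label. Every IMQ mouse lay above every control mouse, and among the IMQ mice the WT values enclosed those of the other genotype. The log2 increases were 5.11 ± 0.92 (SE, edgeR adjusted p = 0.00205) in WT and 5.18 ± 0.94 (SE, edgeR adjusted p = 0.00289) in the mice labelled Lcn2-/-.

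Cxcl3 was nearly silent in control skin, with 1, 4 and 3 counts in the WT mice and 0, 0 and 2 counts in the mice labelled Lcn2-/-. After IMQ it reached 1.94, 6.52 and 11.9 CPM in WT skin and 8.73, 1.87 and 4.62 CPM in skin labelled Lcn2-/-. The lowest mouse of each IMQ group for Cxcl3 was also the lowest for Cxcl2, and the highest was the highest for both. The increase in WT mice was 51.7-fold (log2 5.69 ± 0.92 SE, edgeR adjusted p = 0.00101). It passed with the Lcn2-/- label as well (edgeR adjusted p = 0.00106), and with 2 counts in the control group the ratio of the pooled levels was 180, with an exact counting interval of 49.3 to 1493. The longest protein-coding transcripts of Cxcl2 and Cxcl3 share an identical run of 110 bases, against 23 bases for Cxcl1 and either of them, so reads within that run could be counted on either gene.

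Cxcl5 was close to absent before IMQ and differed widely between mice after it. It had 1, 2 and 0 counts in WT control and 0, 2 and 2 counts in control mice labelled Lcn2-/-. After IMQ it measured 2.91, 2.76 and 5.23 CPM in WT and 1.04, 2.34 and 23.9 CPM in mice labelled Lcn2-/-. The last value, from the mouse that stood apart, was above every other library, and the remaining 2 mice of its group were below every WT IMQ mouse. The ratio of the pooled levels was 80.4 (exact counting interval 27.1 to 393, edgeR adjusted p = 0.0076) in WT. In the mice labelled Lcn2-/- the log2 increase was 7.16 ± 1.34 (SE, edgeR adjusted p = 0.00337) and, without the third IMQ mouse, 4.72 (edgeR adjusted p = 0.00515).

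Ppbp had the smallest change of the ligands in WT skin. It measured 0.739, 0.387 and 0.106 CPM in WT control and 1.7, 1.08 and 1.26 CPM in WT IMQ skin, and the groups do not overlap. It measured 0.361, 0.213 and 0.67 CPM in control and 0.55, 1.23 and 3.0 CPM in IMQ skin labelled Lcn2-/-, and these groups do. The log2 differences were 1.68 ± 0.71 (SE, edgeR adjusted p = 0.0984) in WT and 1.92 ± 0.71 (SE, edgeR adjusted p = 0.0661) in the mice labelled Lcn2-/-, neither of which passed. The latter passed with DESeq2 and without the first IMQ mouse (2.32), and was 1.08 without the third. Averaged over the genotypes, which uses all 12 mice, the log2 difference of 1.8 ± 0.5 (SE) passed (edgeR adjusted p = 0.0143). In that averaged comparison 9 of 9 tested genes of the axis rose, where 38.4% of all tested genes were called and 18.9% rose. These 9 include Ppbp and the other genes whose rise was largely set by the read filter. Platelet markers other than Ppbp summed to 61.3 to 77.0 CPM in WT IMQ against 41.2 to 125 CPM in WT control skin, most of it from Pf4, a platelet chemokine that measured 28.2 to 117 CPM over the 12 libraries. Gp1bb and Gp6, which define platelets, were at 1 count or none in every library, whereas Itga2b, the platelet and megakaryocyte integrin gene and the only called one of 4 tested platelet genes in WT, measured 7.02, 6.4 and 6.86 CPM in WT control and 18.8, 11.8 and 14.1 CPM in WT IMQ skin (log2 1.14 ± 0.23 SE, edgeR adjusted p = 0.00332). The part of platelets in the Ppbp values was not tested.

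Set against each other per kilobase of the exons of their protein-coding transcripts, the ligands ranked in WT IMQ skin as Cxcl1 (18.8 ± 3.22 CPM per kb, SD, n = 3), Cxcl2 (16.6 ± 12.9), Cxcl3 (6.68 ± 4.92), Cxcl5 (2.31 ± 0.881) and Ppbp (1.24 ± 0.295). The ranges of Cxcl1 and Cxcl2, of Cxcl2 and Cxcl3, and of Cxcl3 and Cxcl5 overlap between mice, whereas that of Cxcl5 (1.75 to 3.32 CPM per kb) lay above that of Ppbp (0.993 to 1.57 CPM per kb). Within each of the 3 mice the order Cxcl2, Cxcl3, Cxcl5, Ppbp held, and Cxcl1 stood above Cxcl2 in 2 of the 3. In IMQ skin labelled Lcn2-/- the means ranked as Cxcl2 (13.4 ± 7.8 CPM per kb, SD, n = 3), Cxcl1 (5.98 ± 1.75), Cxcl5 (5.78 ± 8.16), Cxcl3 (4.99 ± 3.4) and Ppbp (1.47 ± 1.17), with overlap between every pair of neighbours. The rank of Cxcl5 rested on the mouse that stood apart, at 15.2 CPM per kb against 0.659 and 1.48 in the rest of its group. The 5 ligands summed to 24.1, 45.7 and 67.1 CPM per kb in the WT IMQ mice and to 35.6, 18.2 and 41.0 CPM per kb in the IMQ mice labelled Lcn2-/-, ranges that overlap, while all 6 control mice lay between 0.537 and 4.88 CPM per kb.

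The composition of this sum also differed between mice. Cxcl1 held 64.7%, 41.0% and 32.8% of the ligand sum in the WT IMQ mice and 11.2%, 39.5% and 16.6% in the IMQ mice labelled Lcn2-/-, so the second mouse of the latter lay within the WT range. Cxcl5 held between 3.83% and 7.66% in WT IMQ mice and 1.85%, 8.17% and 37.1% in the others. With every annotated exon as the length, which includes retained introns, the shares of Cxcl1 were 25.1% to 54.7% and 8% to 29.3%, and those of Cxcl5 in the mouse that stood apart 41.6%. These shares are descriptions and were not tested.

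**Figure D2:**
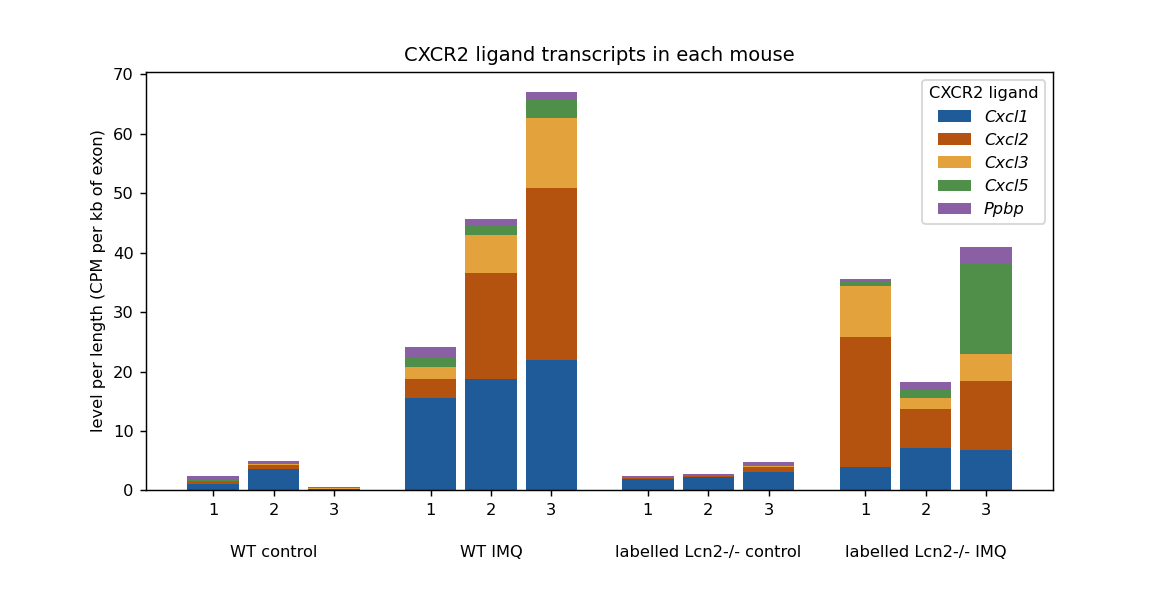
Stacked levels of the 5 CXCR2 ligand genes in each of the 12 mice (3 a group), in CPM per kilobase of exon, so that the height of a bar is the summed level. The sums of the WT IMQ mice (24.1 to 67.1) and of the IMQ mice labelled Lcn2-/- (18.2 to 41.0) overlap, and the large Cxcl5 segment belongs to 1 mouse.

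The receptor genes rose with the ligands. Cxcr2 (chr1:74153989-74161246, plus strand) and Cxcr1 (chr1:74191785-74194631, minus strand) are neighbours, and Csf3r lies at chr4:126024550-126044440 (plus strand). Cxcr2, the receptor for all 5 ligands, measured 3.74, 0.559 and 1.01 CPM in WT control and 37.7, 46.5 and 29.1 CPM in WT IMQ skin. It measured 2.96, 3.04 and 6.39 CPM in control and 45.5, 41.7 and 103 CPM in IMQ skin labelled Lcn2-/-. IMQ and control mice are well apart in both genotypes. The increases were 21.2-fold in WT (log2 4.41 ± 0.63 SE, edgeR adjusted p = 0.000485) and 15.4-fold in the mice labelled Lcn2-/- (log2 3.94 ± 0.6 SE, edgeR adjusted p = 0.00108). Without the third IMQ mouse the latter log2 value was 3.4 (edgeR adjusted p = 0.00546).

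Csf3r, the G-CSF receptor gene of the neutrophil lineage, had the highest mean level per length of the 10 genes in both IMQ groups (20.3 ± 1.72 CPM per kb in WT and 35.3 ± 19.2 in the mice labelled Lcn2-/-, SD, n = 3), although in WT IMQ skin its range of 19.0 to 22.2 CPM per kb overlapped those of Cxcl1 and Cxcl2, and in the mice labelled Lcn2-/- it overlapped Cxcr2. It measured 14.7, 17.3 and 5.16 CPM in WT control and 68.9, 77.9 and 66.5 CPM in WT IMQ mice. It measured 10.5, 4.74 and 13.5 CPM in control and 88.1, 81.4 and 201 CPM in IMQ mice labelled Lcn2-/-. Unlike Cxcr2 it was well expressed in control skin. It rose 5.72-fold in WT (log2 2.52 ± 0.49 SE, edgeR adjusted p = 0.00313) and 12.8-fold in the mice labelled Lcn2-/- (log2 3.68 ± 0.51 SE, edgeR adjusted p = 0.000662). With 1 mouse left out in turn the latter log2 value ran from 3.14 to 4.0 and passed each time.

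Cxcr1, the relative of Cxcr2 next to it on chromosome 1, was the receptor with the fewest reads. No read was counted in the 3 WT control mice, and 10, 7 and 15 were counted in the WT IMQ mice. In the mice labelled Lcn2-/- there were 0, 0 and 1 reads in control and 33, 22 and 38 in IMQ skin. The level in WT IMQ skin was at least 13.1-fold higher than the floor of 3 counts over the control group (edgeR adjusted p = 0.00129). In the mice labelled Lcn2-/- the ratio of the pooled levels was 133, with an exact counting interval of 23.2 to 5300 that a single control read sets (edgeR adjusted p = 0.000509). The longest protein-coding transcripts of Cxcr1 and Cxcr2 share no identical run above 14 bases.

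Cxcr2 and Csf3r kept an almost fixed ratio to each other in IMQ skin. Per kilobase, the ratio of Cxcr2 to Csf3r was 0.629, 0.687 and 0.503 in WT IMQ mice and 0.594, 0.59 and 0.589 in the other IMQ group, while control mice ranged from 0.0372 to 0.737. In the mouse that stood apart both receptors were thus raised in the same proportion. Neutrophil markers moved with these genes. With Cxcr2 and Csf3r left out of the list, 12 of 17 tested markers rose in WT and 16 of 17 in mice labelled Lcn2-/-. Of all tested genes, 14.2% and 14.1% rose. The median log2 fold change of these markers was 3.54 and 3.88, against -0.02 and -0.05 over all tested genes. Of these markers Ly6g, Ngp, Ltf, Camp, Cd177, Trem1, Trem3 and Stfa2l1 had few reads in most control libraries. They passed the read filter through their IMQ libraries, so a rise in them was largely set by that filter. Ly6g, which defines mouse neutrophils, had 0 to 5 reads a control mouse and 7 to 18 an IMQ mouse. Stfa3 and Asprv1, the latter also known from keratinocytes, made up most of the list's summed level and were set aside after their values were seen. The remaining 17 listed markers, tested or not and without the receptors, summed to 60.1 to 176 CPM in WT control and 185 to 329 CPM in WT IMQ mice. Their sum was 66.8 to 138 CPM in control and 295 to 668 CPM in IMQ mice labelled Lcn2-/-. Il1r2 alone held 61.9, 113 and 44.6 CPM of the sum in WT control mice. In WT IMQ mice it held 42.0, 75.3 and 66.2 CPM, so it did not rise there, and it weighed most on the control sums. In bulk skin, more neutrophils and more receptor RNA per neutrophil cannot be told apart.

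**Figure D3:**
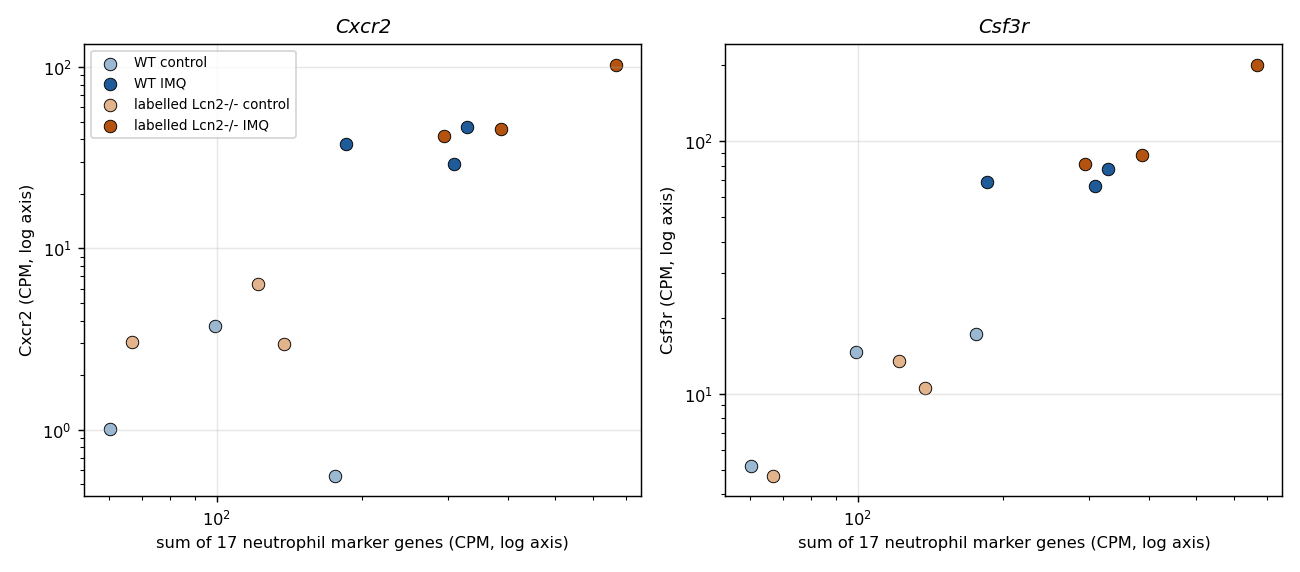
Cxcr2 (left) and Csf3r (right) in CPM against the summed CPM of 17 neutrophil marker genes, both on log axes, 1 point a mouse (12 mice). IMQ mice lay at 29.1 CPM or more of Cxcr2 and 66.5 CPM or more of Csf3r, control mice at 6.39 and 17.3 CPM or less, and the mouse that stood apart (668 CPM of markers) had the highest value of both.

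As a description over the 6 IMQ libraries, which pool both genotypes and in which the mouse that stood apart lies far out, the correlation of log2(CPM + 0.5) with the log2 marker sum was 0.876 for Csf3r, 0.811 for Cxcr2 and 0.62 for Cxcl5, and it was -0.49 for Cxcl1 and -0.786 for Csf3. The levels of Cxcl1 and Csf3 do not overlap between the genotypes in these libraries, and within WT the mouse with the lowest marker sum (185 CPM) had the lowest Cxcl1 (14.8 CPM), against the sign of the pooled value. Over all 12 libraries, where both sets of values separate by treatment, each of these was positive (0.543 for Csf3 to 0.955 for Csf3r).

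Csf3 (chr11:98701263-98703629, plus strand), the gene of the granulocyte factor G-CSF, went from no read to a clear signal in WT skin. No read was counted in any of the 3 WT control mice, and 100, 70 and 69 reads (6.06, 4.71 and 3.34 CPM) in the WT IMQ mice. Its level was at least 97.6-fold higher than the floor of 3 counts over the control group (edgeR adjusted p = 0.00316). With the Lcn2-/- label it had 0, 0 and 16 reads in control skin and 16, 19 and 9 reads (0.977, 1.11 and 0.54 CPM) in IMQ skin. The third control mouse, at 0.714 CPM, thus lay above the lowest IMQ mouse of its genotype, and it also had the highest Cxcl1, Cxcl2 and Cxcr2 of its group. The log2 difference in these mice was 1.88 ± 1.06 (SE, edgeR adjusted p = 0.222). Without that control mouse the remaining controls were at 0 reads and the increase passed (edgeR adjusted p = 0.00477).

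Csf2 (chr11:54247271-54249667, minus strand), the gene of GM-CSF, stayed at the edge of detection. It had 1, 0 and 0 reads in WT control, 4, 11 and 0 in WT IMQ, 5, 4 and 4 in control labelled Lcn2-/- and 3, 0 and 0 in IMQ labelled Lcn2-/- mice. The control mice labelled Lcn2-/- were the only group with reads in every mouse. The ratio of pooled levels between WT IMQ and WT control was 18.4, with an exact counting interval of 2.83 to 773, and between IMQ and control labelled Lcn2-/- 0.329 (0.0602 to 1.2). The intervals cover counting error only, and Csf2 did not pass the filter of the edgeR fit. DESeq2 tested it for the IMQ response in WT, where it did not pass (log2 4.26, adjusted p = 0.0791 on all 12 mice and 0.135 on the 6 WT mice), and edgeR without the filter gave an adjusted p of 0.129.

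After IMQ, the mice labelled Lcn2-/- had lower Cxcl1 and Csf3 and higher Cxcr1 than WT mice, in groups that do not overlap, but no gene of the axis passed the adjusted threshold. Cxcl1 was 3.14-fold lower (log2 -1.65 ± 0.6 SE, edgeR adjusted p = 0.111) and Csf3 5.33-fold lower (log2 -2.41 ± 0.93 SE, edgeR adjusted p = 0.14). Cxcr1 was 3.05-fold higher (log2 1.61 ± 0.52 SE, edgeR adjusted p = 0.0917). These 3 of 9 had an unadjusted edgeR p under 0.05, where 27% of all tested genes did. Csf3r was also higher in each mouse labelled Lcn2-/- than in any WT mouse (log2 0.8 ± 0.46 SE, edgeR adjusted p = 0.282). Of all tested genes 16% lay higher and 17.3% lower without overlap, so 2 of 9 in each direction is close to the background.

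The remaining ligands and Cxcr2 showed overlapping groups. Cxcl2 differed by -0.32 ± 0.73 (SE, log2, edgeR adjusted p = 0.815), Cxcl3 by -0.43 ± 0.66 (SE, edgeR adjusted p = 0.709) and Ppbp by 0.24 ± 0.66 (SE, edgeR adjusted p = 0.846). Cxcr2 differed by 0.75 ± 0.52 (SE, edgeR adjusted p = 0.375), which was 0.21 without the third IMQ mouse, and Csf3r went from 0.8 to 0.26 without it. Cxcl5 differed by 1.32 ± 0.89 (SE, edgeR adjusted p = 0.362) and turned to -1.1 without that mouse, as Ppbp did to -0.59. Cxcl1, Csf3 and Cxcr1 had log2 values of -1.8 to -1.42, -2.62 to -2.16 and 1.44 to 1.82 with 1 mouse left out in turn. Cxcr2 ran from 0.21 to 0.98 and Csf3r from 0.26 to 1.03. Where groups do not overlap, as for Cxcl1, Csf3, Cxcr1 and Csf3r, the side could hardly change, so that it was kept adds no evidence.

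The calls between genotypes depended on the test. DESeq2, the tool named in the study's methods, called Cxcl1 (adjusted p = 0.0402) and Cxcr1 (adjusted p = 0.0437) when fitted on all 12 mice, where it called 14.5% of all genes it tested. Fitted on the 6 IMQ mice only, edgeR called Cxcl1, Csf3 and Cxcr1 (adjusted p = 0.0166, 0.0172 and 0.0496, with 11.1% of all genes called). DESeq2 on these 6 mice called the same 3 and Csf3r (17.9% of all genes).

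**Figure D4:**
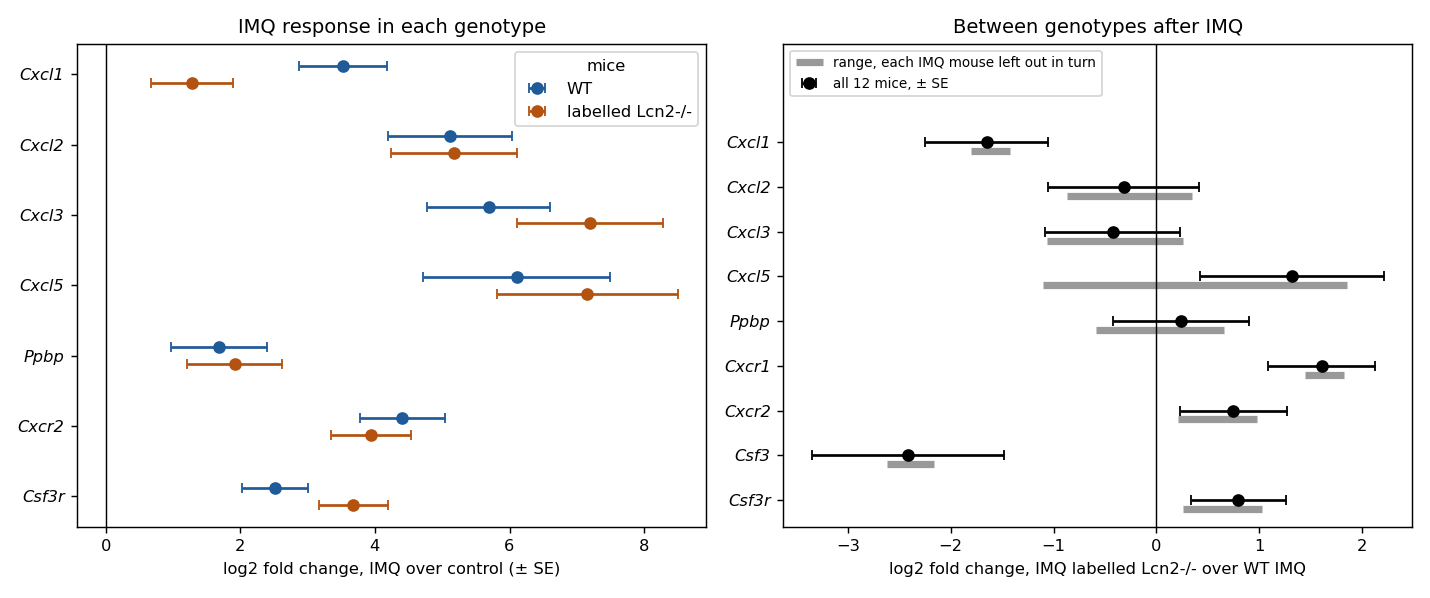
Left, log2 fold change (± SE) of IMQ over control skin in WT mice and in mice labelled Lcn2-/-, for the 7 genes with reads in both control groups that could be fitted (Cxcr1 and Csf3, at 0 reads in WT control, are left out). Right, log2 fold change of IMQ skin labelled Lcn2-/- over WT IMQ skin for 9 genes, with the range when each IMQ mouse is left out in turn (grey), which crosses 0 for Cxcl2, Cxcl3, Cxcl5 and Ppbp and for no other gene.

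Whether the response to IMQ itself depended on genotype was tested as an interaction. None of the 9 genes passed with edgeR, where 2.15% of all tested genes did, 2 of the 9 (Cxcl1 and Csf3) and 24.1% of all tested genes had an unadjusted p under 0.05, and DESeq2 called 1 (Csf3, adjusted p = 0.0419, where it called 10.8% of all genes). Cxcl1 had a response smaller by 2.24 ± 0.87 (SE, log2) in the mice labelled Lcn2-/- (-2.24, edgeR adjusted p = 0.151). Without the second WT control mouse, which had the highest Cxcl1 of the control mice, it was -3.6 and passed (edgeR adjusted p = 0.0408). For Csf3 the edgeR adjusted p was 0.0952, on a fitted size that depends on the 0 reads of the WT control mice. It passed without the first control mouse labelled Lcn2-/- (edgeR adjusted p = 0.0452), and without the third, the one with 16 reads, the edgeR adjusted p was 1. The responses of Cxcl2 (0.07 ± 1.18, SE, log2), Cxcr2 (-0.46 ± 0.8) and Csf3r (1.16 ± 0.66) did not pass, and nor did those of Cxcl3 (1.51 ± 1.6), Cxcl5 (1.05 ± 2.66) and Ppbp (0.24 ± 1.0), with errors that leave large differences possible. Cxcr1 did not pass either, and with 0 and 1 reads in the control groups the size and error of its fitted difference are not reliable.

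Before IMQ the genotypes were not told apart on this axis. None of the 9 genes passed between control mice with edgeR or DESeq2, where 0.0108% of all tested genes passed with edgeR, and 0.621% with DESeq2 on all 12 mice. Only Csf3, with the 16 reads of 1 mouse, had an unadjusted edgeR p under 0.05, as did 6.6% of all tested genes. Cxcr2 was 2.32-fold higher in the control mice labelled Lcn2-/- (log2 1.21 ± 0.61 SE, edgeR adjusted p = 0.82), with overlap between the groups. Cxcl1 differed by 0.59 ± 0.64 (SE, log2), Cxcl2 by -0.38 ± 1.0 and Csf3r by -0.37 ± 0.48.

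Among 18 listed inducers of these genes, which are cytokines, receptors and an adaptor of the IL-17, IL-1, IL-36 and TNF type with Il23a and the imiquimod receptor gene Tlr7, 13 rose in WT and none fell (median log2 fold change 2.0). With the Lcn2-/- label 9 rose and 1 fell (median 0.72), and the other 8 did not pass. Il17a, Il17c and Il23a had few reads in most control libraries and passed the read filter through their IMQ libraries. A rise in them was therefore largely set by that filter. Of all tested genes, 14.2% rose and 14.3% fell in WT and 14.1% rose and 11.2% fell with the other label, and the counts of the lists that follow are to be read against these shares. IL-17 and IL-1 type cytokines act on keratinocytes and fibroblasts to raise Cxcl1, Cxcl2, Cxcl5 and Csf3. The IL-36 genes Il1f6 (5.06 ± 0.28, SE, log2), Il1f8 (3.71 ± 0.27) and Il1f9 (3.7 ± 0.25) rose in WT skin, and by 3.22 ± 0.26, 2.66 ± 0.26 and 2.33 ± 0.23 in the mice labelled Lcn2-/-. Il1b rose by 3.7 ± 0.55 and 2.21 ± 0.51 (SE, log2), respectively. Il17a rose in both as well (2.94 ± 0.8 and 2.55 ± 0.69, SE, log2, edgeR adjusted p = 0.017 and 0.0191), at no more than 2.04 CPM in any mouse. Its call was lost in WT without control mouse 1 or 2 or IMQ mouse 2, and with the other label without control mouse 2 or 3 or IMQ mouse 2 or 3.

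After IMQ, 3 of the 18 inducers were lower in the mice labelled Lcn2-/- and none was higher, where 2.6% of all tested genes were lower. Il17c, an epithelial cytokine, measured 2.0, 1.88 and 2.13 CPM in the WT IMQ mice and 0.244, 0.117 and 0.24 CPM in the others, which is a log2 difference of -3.29 ± 0.55 (SE, edgeR adjusted p = 0.0219). Il1a differed by -1.17 ± 0.21 (SE, log2, edgeR adjusted p = 0.0237) and Il17rc, a subunit of the IL-17 receptor, by -0.48 ± 0.11 (SE, log2, edgeR adjusted p = 0.0414). Il17a (0.91 ± 0.64, SE, log2), Il1b (-0.18 ± 0.49) and Tnf (-0.72 ± 0.43) did not pass. Without WT IMQ mouse 1 or 3, or without IMQ mouse 3 labelled Lcn2-/-, 0 genes of the whole table passed with edgeR in this comparison, where DESeq2 on all 12 mice called 2502, and without the other 2 mice of that label 4 and 1 passed.

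Regulators of the chemokine transcripts were followed in a list of 17, of which 7 rose in WT and 9 in mice labelled Lcn2-/-, against 14.2% and 14.1% of all tested genes. Nfkbiz, which encodes the IκBζ cofactor of the IL-17 and IL-36 response, measured 31.7, 51.0 and 21.4 CPM in WT control and 176, 198 and 162 CPM in WT IMQ skin (log2 2.36 ± 0.3 SE, edgeR adjusted p = 0.000213). It measured 60.2, 56.9 and 97.0 CPM in control and 115, 82.1 and 102 CPM in IMQ skin labelled Lcn2-/- (log2 0.49 ± 0.29 SE, edgeR adjusted p = 0.234). Zc3h12a, whose product Regnase-1 degrades cytokine and chemokine mRNA, rose by 2.66 ± 0.18 (SE, log2) and 0.85 ± 0.17, respectively, and was lower by -0.67 ± 0.17 (SE, log2, edgeR adjusted p = 0.0456) in IMQ mice labelled Lcn2-/- than in WT IMQ mice. The κB factor Rel rose by 0.68 ± 0.11 (SE, log2) in WT skin. The AP-1 gene Fosl1 rose in both (4.66 ± 0.42 and 2.65 ± 0.37, SE, log2), while Cebpd (2.59 ± 0.49) and Cebpb (1.39 ± 0.24), which encode C/EBP factors, passed in the mice labelled Lcn2-/- and had WT values of -0.24 ± 0.46 and 0.48 ± 0.23. Fosl1 also had few reads in most control libraries and passed the read filter through its IMQ libraries.

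**Figure D5:**
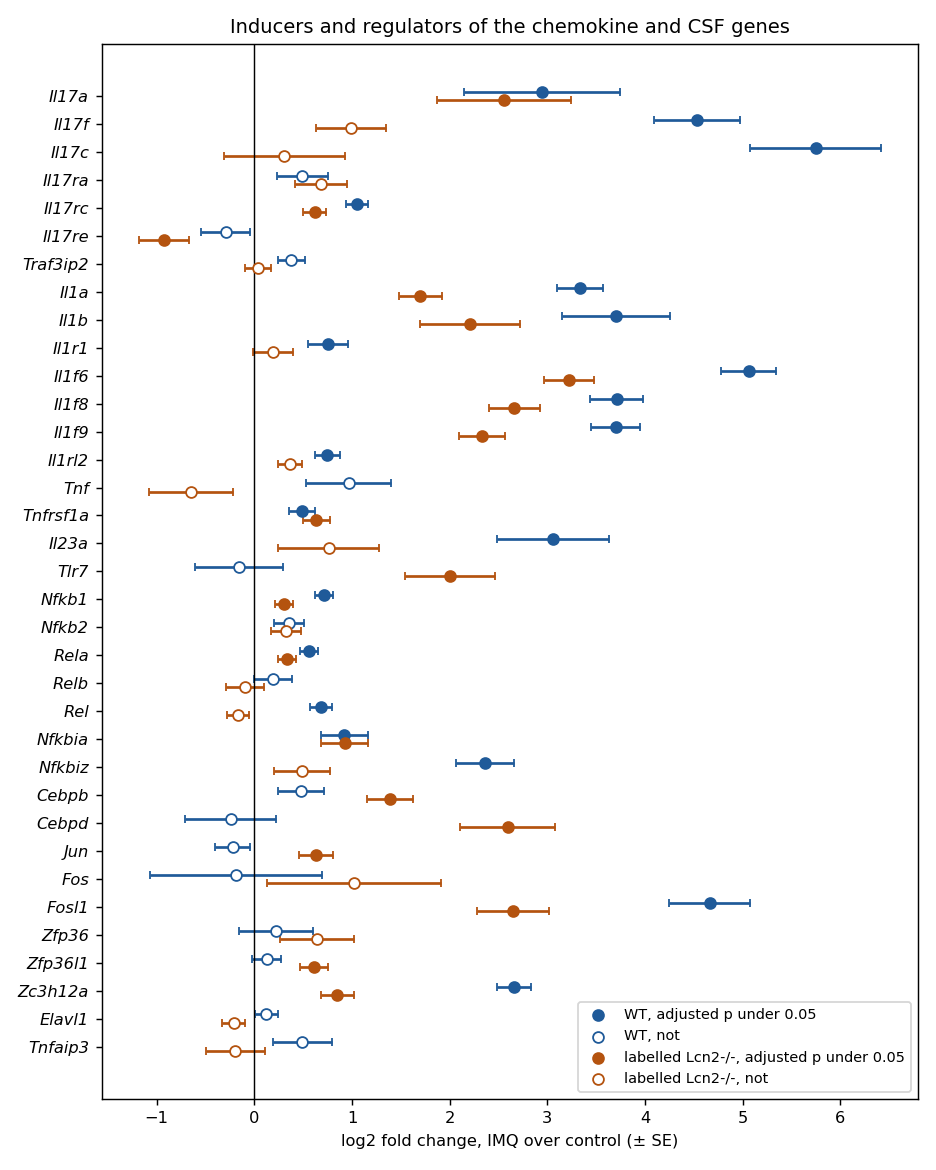
Log2 fold change (± SE) of IMQ over control skin for all 18 listed inducers and 17 listed regulators, in WT mice and in mice labelled Lcn2-/- (3 mice a group), with filled points where the edgeR adjusted p was under 0.05. For Il17c, Il17f, Nfkbiz and Zc3h12a the WT point lies to the right of the other, for Cebpd and Tlr7 to the left. The difference passed the interaction test with edgeR for Il17c, Il17f, Nfkbiz and Zc3h12a and did not for Cebpd and Tlr7.

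Downstream of the receptors, 4 of 14 listed signalling genes rose in WT and 9 rose and 1 fell in the mice labelled Lcn2-/-, where 14.2% and 14.1% of all tested genes rose and 11.2% fell with that label. Socs3, the feedback inhibitor of the G-CSF receptor and of other STAT3-coupled receptors, rose by 2.57 ± 0.36 (SE, log2) and 1.49 ± 0.35, and Stat3 by 1.12 ± 0.13 and 0.76 ± 0.13. Rac2, a GTPase of neutrophils and other blood cells, rose by 2.54 ± 0.51 (SE, log2) in the mice labelled Lcn2-/-. In WT it did not pass, at 51.5, 72.2 and 18.7 CPM in control and 87.3, 197 and 72.8 CPM in IMQ skin. Of the 14 genes 0 passed the interaction test, where 2.15% of all tested genes did. Of 13 tested genes of other neutrophil attractants and their receptors 6 rose in WT and 9 in mice labelled Lcn2-/-, with the formyl peptide receptor gene Fpr1 at 4.0 ± 0.8 and 3.89 ± 0.79 (SE, log2). Of 10 tested other CXC chemokines and decoy receptors none rose and 2 fell in WT, and 2 rose and 2 fell in the mice labelled Lcn2-/-, numbers close to the shares of all tested genes. Of 8 tested other CSF genes and receptors none passed in WT and 4 rose in the mice labelled Lcn2-/-, among them Csf1r (1.79 ± 0.38, SE, log2), the macrophage receptor of CSF1. Macrophage markers rose in 1 of 11 cases in WT, near the share of all genes, and in 9 of 11 in mice labelled Lcn2-/-. Compared directly, 0 of the 11 passed between genotypes after IMQ and 0 in the interaction, where 4.78% and 2.15% of all tested genes did. In control skin all 11 had lower values with the Lcn2-/- label than in WT (median log2 -0.97), and 0 passed. Fibroblast markers summed to 10430 to 11095 CPM in WT IMQ and 20385 to 21210 CPM in IMQ mice labelled Lcn2-/-, with keratinocyte markers at 30872 to 41021 and 17981 to 29166 CPM. The part of these cell types in the ligand and CSF values was not tested.

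By correlation of log2(CPM + 0.5) across the 12 libraries, with 15983 genes compared, a description over libraries that separate by treatment, Cxcl2 and Cxcl3 were each among the 3 genes most like the other (0.978). Cxcr2 was most like the alarmin genes S100a8 (0.973) and S100a9 (0.969) and like Sh3pxd2b (0.967). Csf3r was most like Sirpb1b (0.989), Pstpip1 (0.989) and Clec4n (0.987). Cxcl1 was most like Map3k6 (0.963), Sft2d1 (0.96) and Gch1 (0.95), and Csf3 like Slco1a5 (0.978), Ptk6 (0.966) and Sbno2 (0.96). Among the genes of the axis Cxcl1 was closest to Csf3 (0.879). Cxcl5 was most like Nlrp12 (0.97), Ptprn (0.949) and Prl2c3 (0.944).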

How the data were processed

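Back skin RNA of 12 mice was sequenced after removal of ribosomal RNA. The authors deposited unnormalised read counts for 56923 Ensembl identifiers and 12 libraries. The submitters' processing notes name HISAT and the build mm8, and the strand and the counter are not given in the sources used here. Names and positions were taken from GENCODE M21 (GRCm38), which matched 52073 identifiers (91.5%), and positions are given on that build only. Listed symbols held under another name were matched through RefSeq synonyms (the IL-36 genes as Il1f6, Il1f8 and Il1f9). No library pair of a group agreed within sampling noise.

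Counts were normalized by TMM and fitted with edgeR 4.0.16 (R 4.3.3), a robust quasi-likelihood fit of 4 group means over 12 mice, after filterByExpr (minimum count 10 and total 15) had left 18529 genes. Genes with a Benjamini-Hochberg adjusted p under 0.05 over all tested genes were called, and 1 model supplied the contrasts within and between genotypes and the interaction. The SE beside an edgeR log2 value was derived as its absolute size over the square root of the quasi-likelihood F statistic. It is approximate, most of all for genes with few or no reads in a group. The script was tested on simulated counts. Labels number the mice within each group, but they are different animals and same-numbered libraries did not deviate together, so no block was used. The labels do not say that mice were housed or processed apart, so p-values measure the spread between these mice. Ratios for groups with few reads carry exact (conditional binomial) 95% intervals, and folds against 0 reads use a floor of 3 counts over the group. Promoters are from RefSeq (GRCm38.p6). The genes and lists were chosen with earlier results of these data known. Named beside the 10 genes are those of the fixed lists that were called, those most correlated with a gene of the axis and Lcn2. Alternatives were RLE size factors, DESeq2 1.42.0, a fit of the compared mice, other filters, the replicate number as a block, a fold above 2 with unadjusted p under 0.05, and each mouse left out. Figures were drawn with matplotlib 3.10.9.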

Additional observations from a re-analysis of the deposited data

Results flagged for a closer look

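In the interaction test, 11 of the 80 tested genes of the 6 pathway lists (13.75%, against 2.15% of all tested genes) had an IMQ response that differed between the genotypes (edgeR adjusted p under 0.05, log2 difference of the responses, mice labelled Lcn2-/- minus WT). The lists were chosen with earlier results of these data known, so the higher share is a description and no test of the lists. The response was smaller in the mice labelled Lcn2-/- for the cytokine genes Il17c (-5.44, on 1, 1 and 0 reads in WT control), Il17f (-3.54), Il1f6 (-1.84) and Il1a (-1.63). It was smaller as well for the regulators Nfkbiz (-1.88), Zc3h12a (-1.81) and Rel (-0.85) and for the leukotriene receptor gene Ltb4r2 (-1.38). It was larger for Ptafr (2.96), Cxcr4 (1.73) and Il3ra (1.7). Leaving out 1 mouse in turn ended the call in 3 to 9 of 12 cases for each of these genes other than Cxcr4, which was called in all 12.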

How the results depend on the processing

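For the 9 tested genes of the axis and the comparisons other than that of the controls, 45 results gave 666 values under the alternatives, of which 622 kept direction and side of the threshold, none lost a call, 25 gained one and 19 turned direction. Between genotypes after IMQ, values turned with 1 mouse left out for Cxcl2 (range -0.87 to 0.35, above 0 without WT IMQ mouse 3 and, at 0.01, without IMQ mouse 2 labelled Lcn2-/-), Cxcl3 (-1.07 to 0.26, without WT IMQ mouse 3), and Cxcl5 (-1.1 to 1.85) and Ppbp (-0.59 to 0.65), both without IMQ mouse 3 labelled Lcn2-/-. In the interaction, values turned with 1 mouse left out for Cxcl2 (range -0.49 to 1.23), Cxcl5 (-1.39 to 1.58), Ppbp (-0.59 to 0.73) and Cxcr1 (-0.60 to 1.61), and for Cxcr1 with DESeq2 (0.79). The cause was not tested.

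Counts of all genes called moved by over 1.5 times as follows. With a fold above 2 and an unadjusted p under 0.05, the IMQ response went from 5287 to 3371 genes in WT and from 7106 to 3014 averaged over genotypes, the interaction from 398 to 2031 and the control comparison from 2 to 422. Between genotypes after IMQ, 886 genes became 2502 with DESeq2 on all mice, 1894 with edgeR and 2961 with DESeq2 on the compared mice. DESeq2 called 1927 genes in the interaction, and 107 (all mice) or 59 (compared mice) between controls, where edgeR on the compared mice called 0 and no filter gave 6. With 1 mouse left out the counts ran from 3289 to 5662 (WT IMQ), from 2747 to 4288 (IMQ labelled Lcn2-/-), from 6011 to 7343 (averaged), from 0 to 2726 (between genotypes after IMQ), from 0 to 32 (controls) and from 2 to 1927 (interaction). Under a replicate block, the calls fell to 136 between genotypes after IMQ, to 10 in the interaction and to 0 between controls. Same-numbered mice are different animals and did not deviate together (correlations of -0.555 to 0.199), and the block changed no call of the 9 genes in these comparisons. The few reads on Cxcr1, Csf3, Cxcl3 and Cxcl5 in control skin limit the size of their increases more than the calls.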
